A study of Mus musculus with 16 samples.

Results

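The course of a culture of mouse CD8 T cells that lack Batf3 was followed from 48 h to 72 h in 8 of the 16 RNA-seq libraries of the series, 4 at each time. The members were chosen by label alone: Batf3 ko cells at 72 h were set against Batf3 ko cells at 48 h over all genes. The CD8 T cells were enriched from the spleens of C57BL/6 mice and grown with IL-15 at 50 ng/ml on plates coated with anti-CD3e and anti-CD28 antibodies at 1 µg/ml each, and this stimulus was shared by every group. The other 8 libraries are wild-type cells taken at the same times, and they enter only where the ko course was compared with the wild-type course. The submitters describe the 4 libraries of a group as technical replicates, so p-values reflect differences among such libraries rather than among mice. The labels used here do not say how the Batf3 allele was made or how many mice gave the cells.

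CD8 T cells that meet antigen through the T cell receptor and CD28 enlarge, build ribosomes, switch to glycolysis and divide, and they later become killer cells that carry perforin and granzymes or long-lived memory cells. IL-15 is a cytokine that sustains CD8 memory cells and natural killer cells. BATF3 is a small basic leucine zipper factor of the AP-1 family that pairs with JUN proteins. It is required for the development of cross-presenting dendritic cells and is also induced in activated T cells.

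The labels were checked on the targeted gene. Batf3 gave 2, 3, 7 and 6 reads in the ko libraries at 48 h and 0, 0, 11 and 0 reads at 72 h, where the 11 reads were in replicate 3. In wild-type libraries it stood at 79.2 ± 5.58 CPM (SD, n = 4) at 48 h and 29.8 ± 2.58 CPM at 72 h. In the ko it stood at 0.128 ± 0.0634 and 0.0973 ± 0.195 CPM (SD, n = 4), and the ko and wild-type libraries did not overlap. CPM values, read counts put on a common library size, are scaled between libraries by the TMM method and are not divided by gene length, so levels are compared within a gene and not between genes.

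The 8 ko libraries held 30028227 to 38910251 counts. A gene with no read in a library may still be present at up to 3 counts, or 0.0771 to 0.0999 CPM. A principal component that separated 72 h from 48 h held 90.7% of the variance among them. Replicate 4 at 48 h stood apart from the other 48 h libraries on the second component, which held 4.11%, with a score of -16.2 against 0.3 to 8.8. Genes past an adjusted p of 0.05 (edgeR, Benjamini-Hochberg adjustment over 15197 tested genes) are called higher, lower, risen or fallen below. By that rule 10334 genes, 68.0% of those tested, changed between 48 h and 72 h. Of these, 5227 (34.4%) rose and 5107 (33.6%) fell, and the median log2 fold change of all tested genes was 0.03. Changes of at least 2-fold were seen in 1958 genes that rose (12.9%) and 1370 that fell (9.01%). The 48 h and 72 h libraries did not overlap in 58.8% of tested genes. These shares are the background for every count of list members below. In bulk RNA, fewer cells of a kind and less RNA per cell cannot be told apart.

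**Figure D1:**
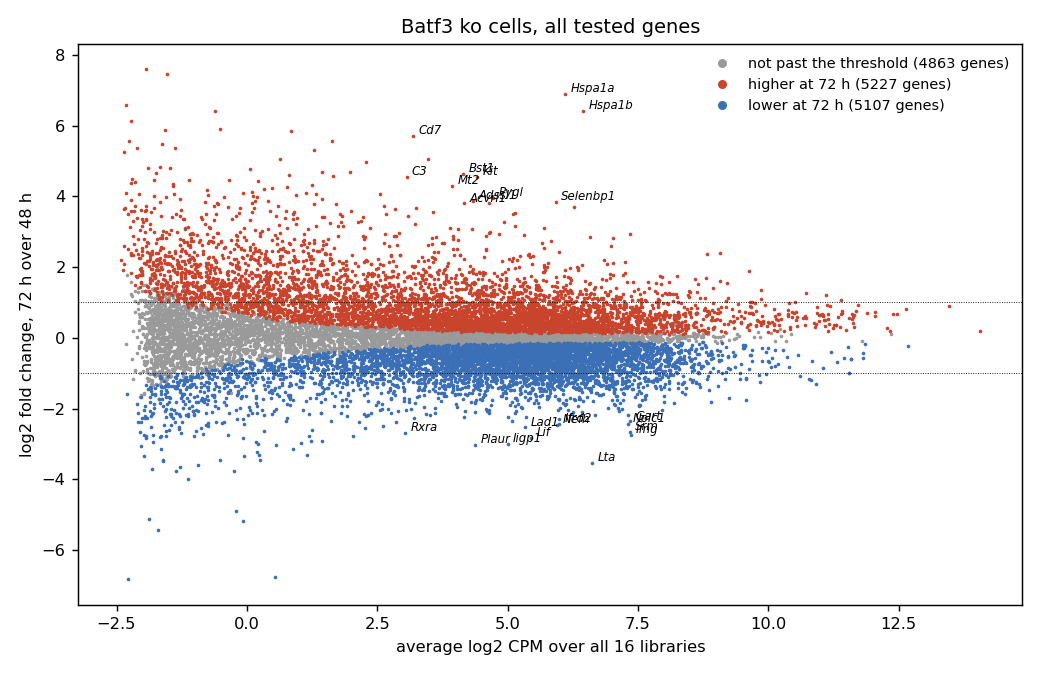
Log2 fold change of every tested gene between 48 h and 72 h in Batf3 ko cells (vertical axis) against its average log2 CPM over all 16 libraries (horizontal axis); dotted lines mark 2-fold. Red points rose (5227 genes) and blue points fell (5107 genes), with the genes of the largest changes named.

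Genes of stress proteins that bind misfolded proteins or metals were among those with large rises. Hspa1a and Hspa1b encode the inducible HSP70 chaperone, Hspb1 encodes a small heat shock protein, and Mt1 and Mt2 encode metallothioneins, which hold zinc and copper. Such genes are known for short promoter elements that heat shock factors and the metal-responsive factor bind. The 250 bases before the RefSeq start of each gene are therefore shown, on GRCm38.p6, 5′ to 3′ on the gene's strand. For Mt1 and Mt2 this start differs from the GENCODE gene position printed below, so their matches depend on the start used. All 7 genes looked up for this purpose had a window in that source.

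In the first 3, capitals mark the inverted repeat GAANNTTC, which reads the same on both strands. They are the windows of Hspa1a (chr17:34972157-34972406, minus strand), Hspa1b (chr17:34959239-34959488, minus strand) and Hspb1 (chr5:135887669-135887918, plus strand).
Hspa1a: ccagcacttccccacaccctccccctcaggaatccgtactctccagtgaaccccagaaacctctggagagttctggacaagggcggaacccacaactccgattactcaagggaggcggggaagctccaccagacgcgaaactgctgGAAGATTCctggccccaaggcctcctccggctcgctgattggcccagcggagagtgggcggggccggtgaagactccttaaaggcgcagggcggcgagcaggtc
Hspa1b: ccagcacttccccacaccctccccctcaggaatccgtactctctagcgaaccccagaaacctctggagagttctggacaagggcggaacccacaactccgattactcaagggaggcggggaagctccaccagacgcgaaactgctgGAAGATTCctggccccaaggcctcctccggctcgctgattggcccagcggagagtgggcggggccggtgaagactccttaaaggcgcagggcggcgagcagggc
Hspb1: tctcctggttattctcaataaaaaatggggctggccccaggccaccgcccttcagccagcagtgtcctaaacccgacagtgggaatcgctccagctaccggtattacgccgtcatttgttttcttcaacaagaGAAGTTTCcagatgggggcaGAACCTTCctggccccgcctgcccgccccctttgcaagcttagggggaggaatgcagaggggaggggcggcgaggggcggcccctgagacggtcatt

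The repeat began 104 bases upstream in both HSP70 genes and 117 and 97 bases upstream in Hspb1. The HSP70 windows were identical at 247 of 250 positions, 98.8%. A GAANNTTC match was present in 6.7% of the 32851 promoter windows of this length in the source, in 4.9% of the windows of tested genes, and in 6 of the 22 windows found for 16 of the 21 tested heat shock proteins.

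In the metallothionein windows, capitals mark TGCACNC or TGCGCNC on either strand, found 1 time in Mt1 and 3 times in Mt2. The windows are those of Mt1 (chr8:94178839-94179088, plus strand) and Mt2 (chr8:94172368-94172617, plus strand).
Mt1: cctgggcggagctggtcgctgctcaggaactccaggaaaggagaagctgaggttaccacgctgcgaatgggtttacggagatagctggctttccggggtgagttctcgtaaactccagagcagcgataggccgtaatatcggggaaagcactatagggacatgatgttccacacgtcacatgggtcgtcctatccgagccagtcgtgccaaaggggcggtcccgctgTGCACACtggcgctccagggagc
Mt2: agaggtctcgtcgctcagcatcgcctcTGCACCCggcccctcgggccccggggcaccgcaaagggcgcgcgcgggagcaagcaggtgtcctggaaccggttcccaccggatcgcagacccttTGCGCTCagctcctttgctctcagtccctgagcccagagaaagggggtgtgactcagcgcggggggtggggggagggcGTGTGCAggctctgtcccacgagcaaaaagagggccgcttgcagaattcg

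Either form was present in 21.4% of all windows and in 29.4% of the windows of tested genes, so a match is common. These matches are descriptions of the letters and show no binding.

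Hspa1a stood at 1.61, 1.52, 1.81 and 1.93 CPM in the libraries at 48 h and at 184, 194, 243 and 201 CPM at 72 h. Hspa1b stood at 3.06, 2.40, 2.90 and 3.73 CPM at 48 h and at 238, 244, 305 and 247 CPM at 72 h. Both were low in every library at 48 h and high in every library at 72 h, with log2 fold changes of 6.90 (SE 0.57, adjusted p = 1.38e-07) and 6.42 (SE 0.53, adjusted p = 1.35e-07). The copies are near-identical and lie side by side on chromosome 17 (chr17:34969190-34972156 and chr17:34956436-34959238), so how the reads were split between them is uncertain. Hspb1 rose from 0.0983 ± 0.0840 to 5.69 ± 1.05 CPM (SD, n = 4), which is 5.86 on the log2 scale. Its 48 h mean lay near the level that 3 counts give, so the size of this change is uncertain.

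Mt2 (chr8:94172664-94173568) stood at 2.15, 2.67, 1.68 and 1.19 CPM at 48 h and at 40.0, 39.5, 39.6 and 32.7 CPM at 72 h. Its neighbour Mt1 (chr8:94179082-94180327) stood at 28.6, 34.8, 33.0 and 19.9 CPM at 48 h and at 213, 224, 211 and 186 CPM at 72 h. The groups did not overlap for either gene, and in both genes replicate 4 was the lowest library at both times. The log2 fold changes were 4.30 (SE 0.17, adjusted p = 6.22e-16) for Mt2 and 2.84 (SE 0.13, adjusted p = 9.15e-14) for Mt1.

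The rise of HSP70 was not shared by the chaperones as a list. Of 21 tested heat shock proteins and their cofactors, 7 rose and 13 fell, with a median log2 fold change of -0.55. Dnajb4 (1.57), Dnajb1 (0.70) and the constitutive HSP70 gene Hspa8 (0.41) were among those that rose. The mitochondrial chaperonin gene Hspd1 fell from 1023, 973, 1181 and 968 CPM at 48 h to 327, 307, 293 and 306 CPM at 72 h, a log2 fold change of -1.75 (SE 0.07, adjusted p = 7.7e-17). The HSP90 activator Ahsa1 (-1.63) and the cytosolic HSP90 gene Hsp90aa1 (-1.08) fell as well, and the factor gene Hsf1 fell by 0.76 on the log2 scale.

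Surface and metabolic genes were among the other large rises. Cd7, a T cell and natural killer cell surface protein of the immunoglobulin family, went from 0.696, 0.527, 0.543 and 0.550 CPM to 28, 31.1, 32.2 and 29.9 CPM (log2 fold change 5.70, SE 0.19). Kit, the receptor for stem cell factor, went from 0.939, 1.90, 1.35 and 1.04 CPM to 23.6, 27.8, 36.0 and 35 CPM (4.54, SE 0.18). Both were near absent in every library at 48 h. Bst1 (CD157, a surface enzyme of NAD metabolism) rose by 4.64, the complement component C3 by 4.56, and Acvrl1, a type I receptor of the TGF-beta family, by 3.80. The liver-type glycogen phosphorylase Pygl rose by 3.96, the adenylosuccinate synthase Adssl1 by 3.88 and Selenbp1 by 3.84.

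Cytokine genes were among the largest falls. Lta, which encodes lymphotoxin alpha, stood at 169, 105, 154 and 178 CPM at 48 h and at 14.2, 12.9, 12 and 13.3 CPM at 72 h, a log2 fold change of -3.53 (SE 0.14, adjusted p = 1.74e-14). Ifng, the gene of interferon gamma, stood at 276, 191, 247 and 220 CPM at 48 h and at 34.8, 35.8, 23.5 and 45.7 CPM at 72 h (-2.74, SE 0.23, adjusted p = 9.33e-08). The lowest library at 48 h lay above the highest at 72 h for both genes. Lif, a cytokine of the IL-6 family, fell by 2.83, the urokinase receptor gene Plaur by 3.03, and the interferon-induced GTPase gene Iigp1 by 3.0 on the log2 scale.

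The remaining large falls were of growth genes and a few others. Srm, the spermidine synthase, stood at 240, 231, 295 and 229 CPM at 48 h and at 39.2, 43.3, 36.3 and 39.3 CPM at 72 h (-2.65, SE 0.08, adjusted p = 9.26e-19). Gart, a purine synthesis enzyme, fell by 2.36, the nucleolar protein gene Nolc1 by 2.44 and Ifrd2 by 2.43 on the log2 scale. The retinoid receptor gene Rxra (-2.7), the anchoring filament protein gene Lad1 (-2.53) and the neurofilament gene Nefh (-2.46) fell as well.

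**Figure D2:**
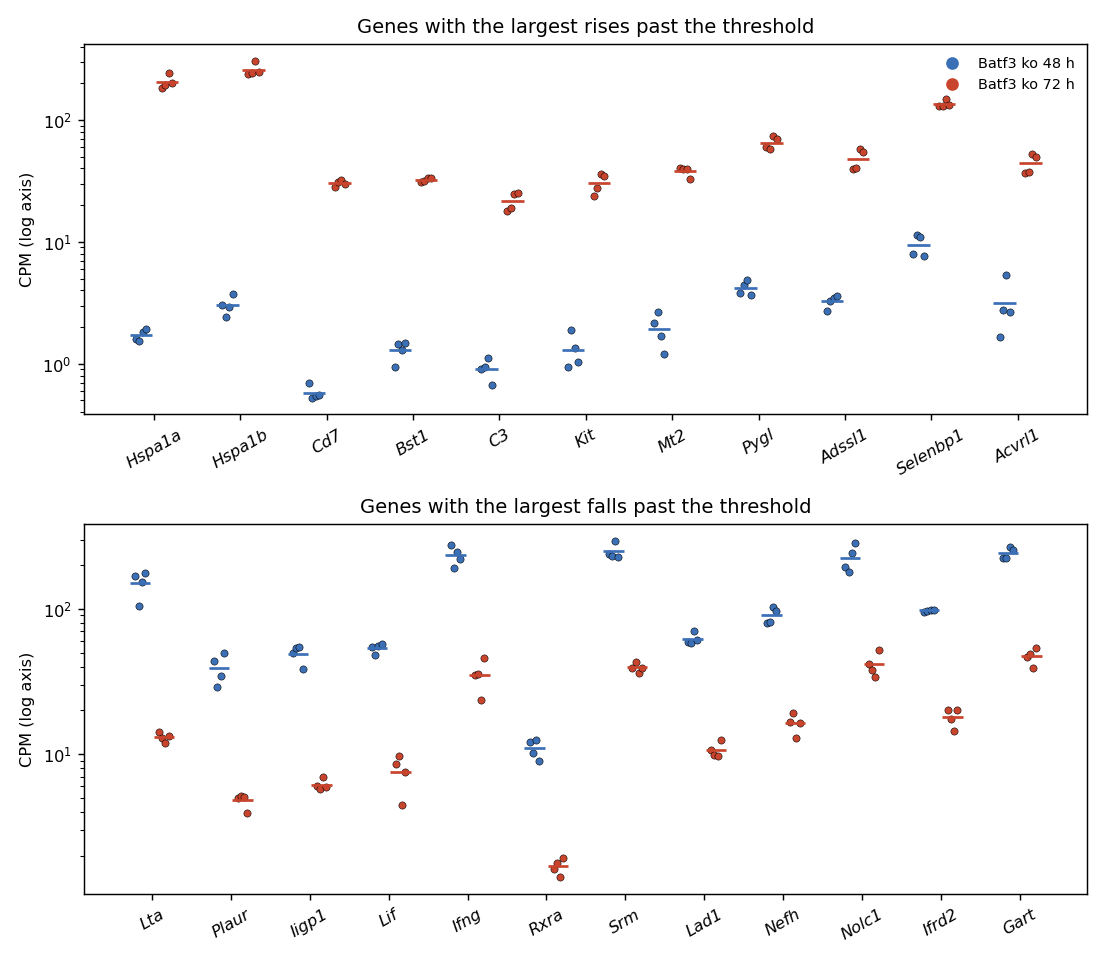
CPM of each Batf3 ko library (log axis) for 11 genes with large rises (top) and 12 with large falls (bottom) that the naming rule took; points are libraries, 4 at 48 h in blue and 4 at 72 h in red, and short lines are group means. The 48 h and 72 h libraries do not overlap for any of the 23 genes, which the rule required.

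The mRNAs of the machinery that makes ribosomes fell while those of the ribosome's own proteins rose. Of 35 tested ribosome biogenesis genes (nucleolar proteins, RNA polymerase I subunits and rRNA processing factors), 33 fell, 0 rose and 28 fell by at least 2-fold, with a median log2 fold change of -1.53. Nolc1 stood at 194, 179, 242 and 283 CPM at 48 h and at 41.9, 37.7, 34.2 and 51.8 CPM at 72 h. Grwd1 (-2.35), Utp20 (-2.29), the polymerase subunit Polr1b (-2.24) and the fibrillarin gene Fbl (-1.11) fell, and Npm1 (-0.09) and Polr1c (0.02) did not pass the test. The share of all counts that the list took was lower in every 72 h library than in any 48 h library. It was 1.19% ± 0.0352 at 48 h and 0.683% ± 0.0208 at 72 h (SD, n = 4, exact two-sided permutation p = 0.0286, the smallest that 4 against 4 libraries allow).

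Of 79 cytosolic ribosomal protein genes, 76 rose and 0 fell, with a median log2 fold change of 0.51 and 1 above 2-fold. Rps15a stood at 1328, 1182, 981 and 991 CPM at 48 h and at 2225, 2211, 2429 and 2270 CPM at 72 h (1.03, SE 0.09, adjusted p = 9.26e-10). Rpl10a rose by 0.90. The share of counts that these 79 genes took was 12.8% ± 0.882 at 48 h and 17.7% ± 0.419 at 72 h (SD, n = 4; exact two-sided permutation p = 0.0286). Many ribosomal protein genes have processed copies elsewhere in the genome, so their single values depend on how reads with several matches were counted. The permutation tests on shares and marker sums made a family of 10, and all 10 gave this smallest p, 0.0286 also after Benjamini-Hochberg adjustment. The lists were chosen with earlier results known, and their genes were called in the same libraries. These p-values therefore add no separate support to the counts of members.

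Genes of DNA replication fell as a block, and mitotic genes split. Of 34 tested S phase genes 32 fell, 0 rose and 10 fell by at least 2-fold, with a median of -0.62. Orc1, a subunit of the origin recognition complex, stood at 54.7, 53.4, 54.3 and 50.3 CPM at 48 h and at 15.3, 13.2, 14.1 and 12.7 CPM at 72 h (-1.94, SE 0.08, adjusted p = 8.09e-17). Cyclin E1, encoded by Ccne1, fell by 1.80 and the ribonucleotide reductase subunit Rrm2 by 1.61, whereas E2f1 (0.08) and Orc6 (-0.18) did not pass. Replication genes were lower at 72 h with hardly an exception.

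Of 28 G2 and mitosis genes, 18 fell and 7 rose (median -0.26). The anaphase activator Cdc20 (-1.18), the kinase Plk1 (-1.18) and cyclin B1, encoded by Ccnb1 (-0.96), fell. The centromeric histone Cenpa rose from 198, 198, 172 and 163 CPM to 364, 371, 414 and 371 CPM (1.06, SE 0.07, adjusted p = 7.08e-13), and Top2a rose by 0.46. The proliferation marker Mki67 was called higher by 0.28 (adjusted p = 0.0131), but its libraries overlapped, since replicate 4 at 48 h, at 531 CPM, was the highest of all 8. Its call was lost under library-size scaling (adjusted p = 0.0951) and without replicate 1 at 48 h (adjusted p = 0.0594). The 7 mitotic rises became 4 under library-size scaling.

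Genes of the G1 step moved both ways, and genes of resting lymphocytes rose. Among 20 G1 cyclins, CDKs, their inhibitors and E2F and RB family genes, 7 rose and 7 fell, both near the shares of all genes. The CDK inhibitor p27, encoded by Cdkn1b, stood at 36.0, 33.6, 32.9 and 41.5 CPM at 48 h and at 155, 144, 155 and 128 CPM at 72 h (2.01, SE 0.08, adjusted p = 1.87e-16). Rb1 (1.27) and the inhibitor gene Cdkn2d (1.05) rose, and Cdk4 (-0.95), Cdk2 (-0.69) and Ccnd2 (-0.66) fell.

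Of 24 quiescence genes 17 rose, 12 of them by at least 2-fold, and 1 fell (median 0.92). Pik3ip1, an inhibitor of PI3 kinase, went from 7.99, 7.91, 8.0 and 8.46 CPM to 53.1, 58.2, 70.6 and 63.4 CPM (2.92, SE 0.10, adjusted p = 1.42e-17). The MYC antagonist Mxd4 (2.21), Ypel3 (2.16), the glucocorticoid-induced gene Tsc22d3 (2.05) and Klf2 (1.84) rose as well. Tob2 (-0.95) was the gene that fell, 2 genes did without replicate 1 or replicate 2 at 72 h, and Txnip (-0.16) did not pass. Myc itself fell from 258, 256, 300 and 320 CPM to 164, 176, 139 and 170 CPM (-0.81, SE 0.08, adjusted p = 9.29e-10). Of 21 p53 targets 9 rose and 10 fell (median -0.53), with Ddit4 (1.40) and Btg2 (1.02) among the rises and Tigar (-1.72) and Aen (-1.31) among the falls.

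Genes of amino acid, nucleotide and polyamine synthesis mostly fell, and those of glycolysis and the hypoxia response mostly rose. Of 21 genes of serine, one-carbon, purine and polyamine synthesis 16 fell and 3 rose (median -0.97). Besides Srm and Gart, the folate enzymes Shmt1 (-2.16) and Mthfd1 (-1.76) fell, as did the ornithine decarboxylase Odc1 (-1.16). The spermine oxidase Smox rose by 2.29 and the polyamine acetyltransferase Sat1 by 0.99. The mRNAs of the named enzymes that make polyamines thus fell, and those of these enzymes that turn them over rose. Of 15 tested amino acid transporters 11 fell and 0 rose (median -0.76). The large neutral transporter Slc7a5 stood at 602, 565, 594 and 680 CPM at 48 h and at 250, 255, 203 and 228 CPM at 72 h (-1.38, SE 0.08, adjusted p = 3.91e-14), while its partner chain Slc3a2 (-0.08) did not pass.

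Of 27 genes of glycolysis and glucose transport 22 rose and 3 fell (median 0.69). Aldoc, an aldolase, went from 9.60, 13.2, 11.9 and 14.0 CPM to 140, 142, 170 and 178 CPM (3.69, SE 0.10, adjusted p = 6.19e-19). The glucose transporter Slc2a3 went from 178, 178, 175 and 167 CPM to 922, 918, 889 and 927 CPM (2.39, SE 0.07, adjusted p = 6.68e-19). Slc2a3 kept a narrow spread within each time. Aldoc spread more, with an SD of 1.93 on a mean of 12.2 CPM at 48 h and of 19.6 on 157.5 CPM at 72 h (n = 4). The glycogen branching enzyme Gbe1 rose by 2.73, Pgk1 by 1.06 and Aldoa by 1.26, whereas the lactate and monocarboxylate transporter Slc16a1 (-0.90), Hk2 (-0.75) and Ldha (-0.18) fell.

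Of 25 tested hypoxia response genes 24 rose, 17 of them by at least 2-fold, and 0 fell, with a median of 1.29, which was the highest of the 37 functional lists. Ndrg1 went from 35.6, 40.8, 35.8 and 42.9 CPM to 278, 265, 279 and 280 CPM (2.83, SE 0.09, adjusted p = 1.54e-18). Adrenomedullin, encoded by Adm (4.03), the collagen hydroxylase P4ha2 (2.48), the mitophagy receptors Bnip3l (1.75) and Bnip3 (1.58) and the oxygen sensor Egln1 (1.29) rose. Hif1a, whose product is controlled mainly by oxygen-dependent decay of the protein, stood at 0.13 and did not pass. Oxygen in the cultures was not measured, and the part of cell density or oxygen in these values was not tested.

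ACGTG is a form of the core of the hypoxia response element, and only this form was searched. It was found in 15 of the 28 windows of 19 hypoxia response genes (53.6%), in 15 of 39 windows of 26 glycolysis genes (38.5%), in 21.7% of the windows of tested genes and in 16.6% of all windows. A match shows no binding. The windows of Bnip3 (chr7:138909507-138909756, minus strand) and Pgk1 (chrX:106186850-106187099, plus strand) are shown with the motif on either strand in capitals. Pgk1 holds it at 2 separate places, which begin 150 and 131 bases upstream. In Bnip3 the 2 matches begin 108 and 107 bases upstream and are the same stretch, CACGTG, read on both strands.
Bnip3: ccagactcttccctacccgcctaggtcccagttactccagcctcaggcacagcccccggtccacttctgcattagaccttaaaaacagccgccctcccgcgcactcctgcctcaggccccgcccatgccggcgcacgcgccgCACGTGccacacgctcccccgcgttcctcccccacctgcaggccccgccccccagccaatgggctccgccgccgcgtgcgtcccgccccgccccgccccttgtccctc
Pgk1: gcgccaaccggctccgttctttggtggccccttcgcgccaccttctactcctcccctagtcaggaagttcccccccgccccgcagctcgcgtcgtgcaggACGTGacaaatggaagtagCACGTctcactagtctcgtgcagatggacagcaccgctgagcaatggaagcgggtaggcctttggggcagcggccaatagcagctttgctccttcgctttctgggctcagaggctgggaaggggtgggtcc

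Mitochondrial genes fell in part. Of the 13 mRNAs encoded in the mitochondrial genome 12 fell and 1 rose (median -0.84). The subunit gene mt-Nd3 stood at 371, 317, 328 and 279 CPM at 48 h and at 89.5, 88.4, 78.4 and 89.2 CPM at 72 h (-1.91, SE 0.10, adjusted p = 8.58e-14), and mt-Co1 was called higher by 0.20 (adjusted p = 0.0478) with overlapping groups. The 13 mRNAs together took 3.97% ± 0.359 of counts at 48 h and 3.04% ± 0.257 at 72 h (SD, n = 4; exact two-sided permutation p = 0.0286). Of 42 nuclear genes of the respiratory chain and ATP synthase 26 fell and 4 rose (median -0.21), with Ndufa5 (-1.27), Ndufa4 (-1.22) and the cytochrome c gene Cycs (-1.19) the lowest among those named.

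Lipid genes did not move as a block. Of 30 genes of cholesterol and fatty acid synthesis 10 rose and 8 fell (median 0.02). Squalene synthase, encoded by Fdft1 (0.93), and Mvd (0.78) rose, while fatty acid synthase, encoded by Fasn (-1.29), and the carboxylase Acaca (-1.07) fell. Of 22 tested genes of fatty acid oxidation and uptake 5 rose and 9 fell (median -0.01). The fatty acid translocase Cd36 fell from 24.7, 16.8, 19.3 and 17.5 CPM to 4.26, 3.37, 4.14 and 5.95 CPM (-2.14, SE 0.15, adjusted p = 8.24e-12), and Acsl1 (-1.80) and the carrier Fabp5 (-1.30) fell. The 5 rises became 9 when offsets for exon length were added to the fit.

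Genes of the responses to amino acid shortage and to unfolded protein moved mostly downward. Of 28 tested genes of the ATF4 and CHOP response 19 fell and 9 rose (median -0.58). The glutathione-degrading enzyme Chac1 (-1.86), the leucine sensor Sesn2 (-1.66) and the tRNA ligase Wars (-1.36) fell, and Stc2 (1.64), Vldlr (1.54), Ddit4 (1.40) and the CHOP gene Ddit3 (1.22) rose. Atf4 itself fell by 0.47. Of 23 endoplasmic reticulum chaperones and genes of the unfolded protein response 18 fell and 4 rose (median -0.72). Hyou1 (-1.44), Sdf2l1 (-1.42) and the BiP gene Hspa5 (-1.0) fell, and the 4 that rose, Dnajb9 (0.60), Ern1 (0.36), Atf6 (0.35) and Edem1 (0.13), included 2 of the sensors. These 4 rises became 2 without replicate 1 at 72 h, under library-size scaling and in a fit of the 8 ko libraries alone.

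**Figure D3:**
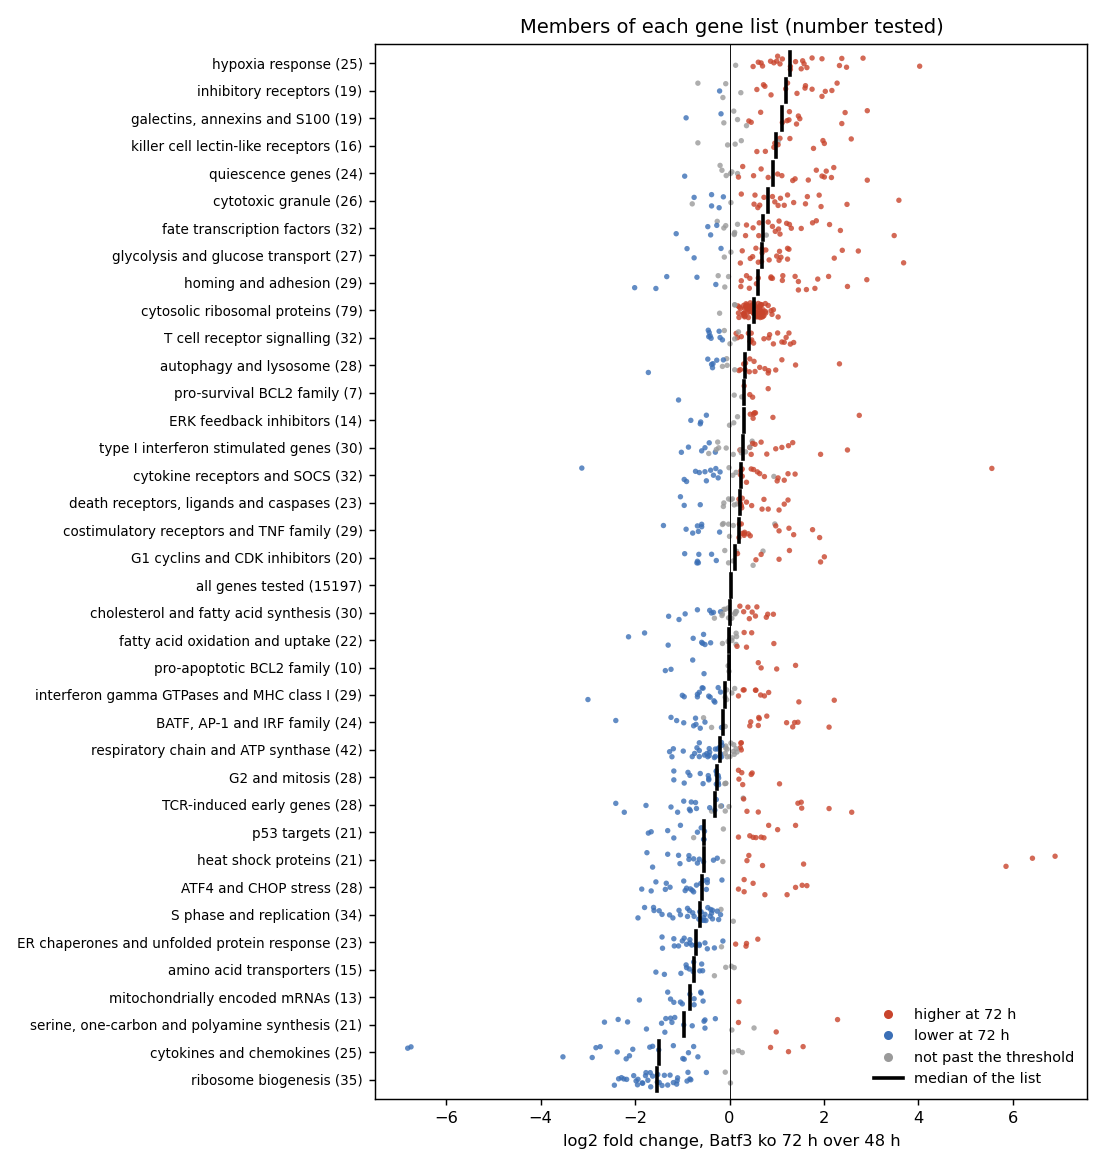
Log2 fold change between 48 h and 72 h in Batf3 ko cells (horizontal axis) of every tested member of 37 gene lists, sorted by the list's median (black bar), with the number tested in brackets; red points rose, blue points fell and grey points did not pass the test. The hypoxia list lies highest at a median of 1.29 and ribosome biogenesis lowest at -1.53, around a median of 0.03 for all tested genes.

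Genes of the killing machinery were for the most part higher at 72 h. Of 26 tested genes of the cytotoxic granule and its release 19 rose and 5 fell (median 0.82). The pore-forming protein gene Prf1 went from 74.0, 62.8, 69.5 and 66.1 CPM to 188, 184, 130 and 196 CPM (1.36, SE 0.10, adjusted p = 1.08e-11), with replicate 3 the lowest at 72 h. The serpin family gene Serpinb6b (1.90), cathepsin W, encoded by Ctsw (1.65), and Nkg7 (1.23) rose. Gzmb stood at 8263, 7943, 7876 and 7775 CPM at 48 h and at 7529, 7063, 6179 and 6487 CPM at 72 h, a fall of small size without overlap (-0.22, SE 0.06, adjusted p = 0.00349). Gzmg (3.59), Gzmf (1.94), Gzmd (1.61) and Gzme (0.60) rose, but these granzymes are close copies of each other, so the split of reads among them is uncertain.

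Cytokine mRNAs fell. Of 25 tested cytokines and chemokines 19 fell, 14 by at least 2-fold, and 3 rose (median -1.5). Besides Lta, Ifng and Lif, the genes of IL-2 (Il2, -2.38), GM-CSF (Csf2, -2.19), IL-13 (Il13, -2.12), IL-4 (Il4, -2.05) and TNF (Tnf, -1.63) fell. Il22 stood at a mean of 0.411 CPM at 48 h and gave no read at 72 h, and Il17a went from a mean of 2.95 to 0.023 CPM. The rises were of osteopontin, encoded by Spp1 (1.56), the chemokine Ccl5 (1.25) and lymphotoxin beta, encoded by Ltb (0.87), while Il10 (0.19) and Xcl1 (0.27) did not pass. Lta and Ltb, whose products join in 1 membrane complex, moved in opposite directions.

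Cytokine receptors moved both ways. Of 32 receptors and signal regulators 16 rose and 12 fell (median 0.24). The decoy receptor gene Il1r2 went from 0.273, 0.0879, 0.155 and 0.122 CPM to 10.8, 7.52, 6.02 and 6.23 CPM (5.56, SE 0.30, adjusted p = 3.29e-14). Il7r, the IL-7 receptor chain of resting and memory cells, went from 45.1, 63.7, 55.5 and 50.0 CPM to 140, 134, 146 and 143 CPM (1.39, SE 0.08, adjusted p = 2.9e-13). For both, every library at 72 h lay above every library at 48 h. Il2ra fell by 0.40 and Il2rb, a chain of the IL-2 and IL-15 receptors, by 0.29, Socs1 fell by 0.96 and the IL-33 receptor Il1rl1 by 3.13.

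Inhibitory receptors rose as a group. Of 19 tested genes 14 rose, 10 by at least 2-fold, and 1 fell (median 1.19). Havcr2, which encodes TIM-3, went from 7.33, 7.26, 6.6 and 5.59 CPM to 27.5, 26.8, 27.7 and 27.1 CPM (2.03, SE 0.10, adjusted p = 1.38e-14). The ectoenzymes of the adenosine pathway Nt5e (CD73, 2.28), Cd38 (2.17) and Entpd1 (CD39, 1.96), the receptor genes Lag3 (1.75) and Tigit (1.23) and the PD-1 gene Pdcd1 (0.72) rose. Btla (-0.21) fell, with 2 falls in place of 1 without replicate 2 at 48 h, and Ctla4 (0.24), Tox (-0.08) and Klrg1 (-0.67) did not pass. Of 29 costimulatory receptors and TNF family members 15 rose and 8 fell (median 0.21), among them Slamf7 (1.91), 4-1BB, encoded by Tnfrsf9 (1.36), and Cd28 (1.26) upward and Cd40lg (-1.40) and Tnfsf11 (-0.92) downward. The 15 rises were 11 under library-size scaling.

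Killer cell lectin-like receptors, which natural killer cells also carry, showed 11 rises and 0 falls among 16 tested genes (median 0.99). Klrk1, the NKG2D gene, went from 66.9, 89.5, 79.4 and 55.1 CPM to 204, 217, 299 and 280 CPM (1.78, SE 0.17, adjusted p = 6.6e-08), and Klrd1, the CD94 gene, rose by 2.01. Members of this family resemble each other closely, so single values are uncertain.

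Transcription factors of T cell fate were mostly higher. Of 32 tested genes 20 rose, 12 by at least 2-fold, and 4 fell (median 0.71). The repressor Bcl6 (3.49), Rora (2.35), the tissue-residency factor Zfp683 (2.12), Id2 (1.31) and Blimp-1, encoded by Prdm1 (1.27), rose. The T-bet gene Tbx21 fell from 85.7, 83.5, 90.8 and 105 CPM to 43.1, 43.1, 35.8 and 44.6 CPM (-1.13, SE 0.08, adjusted p = 2.3e-12), and Eomes (-0.46) and Id3 (-0.40) fell. Tcf7, which encodes TCF-1, was called lower by 0.27 (adjusted p = 0.0155), but replicate 2 at 72 h, at 127 CPM, lay above replicate 2 at 48 h, at 126 CPM. That call was lost without replicate 4 at 48 h (adjusted p = 0.0663) and without replicate 3 at 72 h (adjusted p = 0.067), and with exon length offsets (adjusted p = 0.131). Tox (-0.08) did not pass.

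Homing receptors rose in 21 of 29 tested genes and fell in 5 (median 0.61). The chemokine receptor Cxcr4 went from 9.72, 12.7, 10.7 and 8.43 CPM to 87.3, 79.0, 83.3 and 64.0 CPM (2.91, SE 0.14, adjusted p = 5.26e-14). Cxcr6 (2.50), the integrin chain Itgb3 (2.10), Ccr2 (1.87) and the egress receptor S1pr1 (1.81) rose, and Ccr8 (-2.01), Ccr4 (-1.56) and P2rx7 (-1.33) fell. Of 19 tested galectins, annexins and S100 proteins 13 rose and 2 fell (median 1.12), with Lgals3 (2.92), Anxa1 (2.45) and Anxa2 (2.38) the largest rises. The 2 falls became 1 without replicate 2 or 3 at 48 h or at 72 h.

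Early genes of T cell receptor signalling were lower in 15 of 28 cases and higher in 8 (median -0.30). The nuclear receptor gene Nr4a3 (-1.77), the IkB family member Nfkbid (-2.23) and Egr2 (-1.10) fell. Nfkbid went from 48.4, 40.9, 50.2 and 50.1 CPM to 9.84, 10.8, 7.89 and 11.9 CPM. The NF-kB inhibitor A20, encoded by Tnfaip3, rose from 35.3, 39.3, 35.6 and 44.8 CPM to 239, 236, 243 and 212 CPM (2.59, SE 0.09, adjusted p = 4.38e-17). Of 14 ERK feedback inhibitors 7 rose and 4 fell (median 0.31), with Spred3 (2.75) and Spry2 (0.92) upward and Spred1 (-0.82) downward. Of 32 components of the receptor and its signalling chain 20 rose and 8 fell (median 0.42), where the 8 falls became 5 without replicate 3 at 72 h and with exon length offsets. Cd3g (1.29) and Txk (1.36) rose, and Csk (-0.45) fell. Cd8a was called higher by 0.17 (adjusted p = 0.00711), a call lost under library-size scaling (adjusted p = 0.108) and with no filter on low counts (adjusted p = 0.172).

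The relatives of BATF3 moved both ways. Of 24 tested genes of the BATF, AP-1 and IRF families 11 rose and 10 fell (median -0.13). Batf, the close paralog that also pairs with JUN proteins and with IRF4, fell from 71.4, 65.7, 65.6 and 69.3 CPM to 42.6, 44.9, 44.4 and 44.9 CPM (-0.62, SE 0.06, adjusted p = 1.8e-09). Irf4 fell from 212, 196, 228 and 266 CPM to 114, 105, 115 and 126 CPM (-0.97, SE 0.08, adjusted p = 6.01e-11). Both were lower in every library at 72 h. Fosl2 (2.11), Jun (1.45), Irf2 (1.38) and Junb (0.61) rose, and Irf8 (-0.72) and Fos (-1.24) fell.

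Interferon-stimulated genes moved both ways. Of 30 tested type I interferon stimulated genes 13 rose and 6 fell (median 0.29), with the RNA sensors Dhx58 (2.50) and Ddx58 (1.25) and the factor Irf7 (1.34) upward. Usp18 (-0.87) and Oas1a (-1.02) fell and Isg15 (-0.44) did not pass. Of 29 interferon gamma GTPases and genes of MHC class I presentation 10 rose and 14 fell (median -0.09). The guanylate-binding proteins Gbp8 (2.22) and Gbp3 (1.47) rose, as did B2m (0.66), and the immunity-related GTPases Iigp1, Tgtp1 (-1.0) and Irgm1 (-0.68) fell. Tgtp1 and Tgtp2 are near-identical copies, so each value is uncertain.

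Genes of cell death and survival changed in both directions. Of 10 tested pro-apoptotic BCL2 family genes 4 rose and 4 fell (median -0.02). BIM, encoded by Bcl2l11, went from 27.3, 29.2, 29.9 and 32.0 CPM to 81.6, 81.5, 78.0 and 72.0 CPM (1.40, SE 0.10, adjusted p = 6.35e-12), and Bmf (1.00) rose, while Bid (-1.24) fell. Among 7 tested pro-survival members 4 rose and 1 fell (median 0.31). The gene that fell, Bcl2l1 (BCL-XL), went from 163, 145, 163 and 159 CPM to 72.7, 72.6, 72.2 and 79.7 CPM (-1.08, SE 0.07, adjusted p = 2.73e-13), and Bcl2 rose from 174, 202, 185 and 198 CPM to 287, 274, 261 and 247 CPM (0.49, SE 0.07, adjusted p = 3.26e-07). BIM and BCL2 mRNA were thus higher and BCL-XL mRNA lower in every 72 h library.

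Of 23 death receptors, ligands and caspases 13 rose and 3 fell (median 0.23), with Birc2 (1.24), TRAIL, encoded by Tnfsf10 (1.16), and Fas (0.73) upward and Fadd (-0.96) downward. Of 28 autophagy and lysosome genes 17 rose and 7 fell (median 0.32). Wipi1 (2.33) and Gabarap (1.11) rose, and the lysosomal enzyme Gusb fell from 90.8, 81.5, 92.1 and 89.1 CPM to 29.4, 28.7, 24.7 and 24.5 CPM (-1.72, SE 0.07, adjusted p = 2.65e-16).

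Markers of other cells that a spleen preparation could hold were measured beside these lists. The 9 CD8 T cell markers summed to 2809 to 3384 CPM at 48 h and 4094 to 4509 CPM at 72 h, and all 9 were detected. Every one of the 6 other marker sums was also higher at 72 h without overlap. The 20 markers of macrophages, monocytes and granulocytes summed to 1.36 to 2.63 and 9.70 to 13.4 CPM, most of it Cd68 (means of 1.33 and 9.85 CPM). Of the 20 markers 11 had under 3 reads and 6 of these were at 0 in all ko libraries, among them Adgre1. The 11 dendritic cell markers summed to 25.8 to 29.9 and 119 to 138 CPM, with Siglech and Clec9a at 0. H2-Ab1, an MHC class II beta chain gene, stood at 13.2 CPM at 48 h, beside Cd74 at 8.59 CPM, and at 114 CPM at 72 h, where it made up most of the sum, while the alpha chain gene H2-Aa stood at 0.450 and 0.398 CPM.

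The 14 B cell markers summed to 288 to 322 and 323 to 357 CPM, nearly all of it Ighm, with Ms4a1 and Pax5 near 0. The 13 measured markers of natural killer and gamma delta T cells summed to 47.0 to 50.7 and 78.8 to 89.5 CPM. The 5 of CD4 and regulatory T cells summed to 34.0 to 44.4 and 90.1 to 104 CPM, with Cd4 itself at 0.171 and 0.42 CPM. Nearly all of that sum was Zbtb7b (24.9 and 53.3 CPM) and Ikzf2 (13.1 and 44.4 CPM). The 12 erythroid and stromal markers summed to 14.2 to 16.8 and 28.8 to 31.0 CPM, most of it Pecam1. The sum for natural killer and gamma delta T cells was spread over several genes, with Gpr55 at 18.2 and 25.3 CPM, Klre1 at 9.48 and 19.3 CPM, Adamts14 at 3.5 and 11.5 CPM and Klrb1c at 1.84 and 7.28 CPM, while Ncr1, the gene of the natural killer receptor NKp46, stood at 0.337 and 0.266 CPM. The part of such cells in the lectin-like receptor and granule lists was not tested.

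The same question was put to wild-type cells to see where the ko course differed. The courses share no library. Of the 10334 genes called in the ko course 10022, or 97%, had the same sign in the wild-type course, which held 5113 rises and 4551 falls. Over all 15197 tested genes, called or not, 13330 had the same sign in both courses. Across 9286 genes with an average log2 CPM above 3 the fold changes of both courses correlated with a Pearson r of 0.953 and a Spearman rho of 0.945, as a description, since genes are not independent replicates. The difference of the courses was tested as the interaction of genotype and time. It passed for 853 genes, 5.61% of those tested: 316 (2.08%) were higher and 537 (3.53%) lower in the ko course. With library-size scaling 183 were higher and 1231 lower, which moved the higher share of calls from 37% to 12.9%, and with exon length offsets it was 49.1%. Without replicate 3 of ko 72 h it was 281 higher and 233 lower. The counts also fell by more than 1.5 times without replicate 1 (193 higher and 325 lower) or 4 (177 and 311) of wild type 48 h, replicate 3 of ko 48 h (172 and 302), replicate 3 of wild type 72 h (158 and 288) and, for higher genes, replicate 1 of ko 72 h (209).

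**Figure D4:**
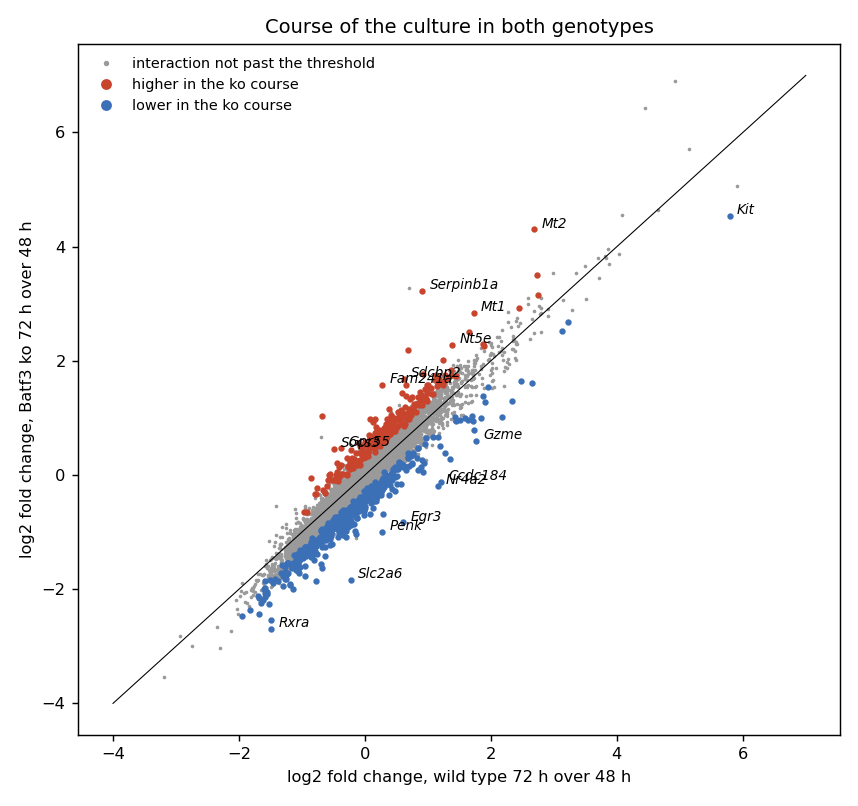
Log2 fold change from 48 h to 72 h in Batf3 ko cells (vertical axis) against that in wild-type cells (horizontal axis) for the 9286 genes with an average log2 CPM above 3; the line marks equal change. Red and blue points passed the test of the difference, and the named genes are the 8 largest each way among those the rule allowed.

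Metallothioneins rose further without Batf3. Mt2 rose by 4.30 in the ko and by 2.68 in wild type (difference 1.62, SE 0.24, adjusted p = 0.000357), and reached 37.9 ± 3.47 CPM in ko and 18.6 ± 0.627 CPM in wild type at 72 h (SD, n = 4). Mt1 rose by 2.84 and 1.72 (difference 1.11, SE 0.17, adjusted p = 0.00078) and reached 208 ± 16.2 and 113 ± 11 CPM (SD, n = 4). At 48 h the genotypes overlapped for both genes, at 29.1 ± 6.65 and 34.3 ± 3.32 CPM for Mt1. The HSP70 genes rose in both courses, by 4.92 and 4.45 in wild type, and the difference did not pass for Hspa1a (1.99, SE 0.82, adjusted p = 0.188) or Hspa1b (1.97, SE 0.71, adjusted p = 0.131).

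The largest difference upward among the named genes was Serpinb1a, an inhibitor of neutrophil-type serine proteases. It stood at 3.54, 3.05, 3.13 and 2.96 CPM at 48 h and at 29.2, 31.1, 30.5 and 28.3 CPM at 72 h in the ko, against 1.44 ± 0.212 and 2.7 ± 0.720 CPM in wild type (SD, n = 4; difference 2.32, SE 0.22, adjusted p = 1.91e-06). Socs3, a feedback inhibitor of cytokine signalling, rose by 0.46 in the ko and fell by 0.50 in wild type (difference 0.96, SE 0.19), with overlapping ko libraries at 48 h and 72 h. Nt5e (0.89), Cxcr6 (0.85), Sdcbp2 (1.08), Fam241a (1.31) and the lipid receptor Gpr55 (0.86) also had positive differences.

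Nr4a2 and Egr3, early genes of T cell receptor signalling, had negative differences, as had 8 of the 28 genes of their list, or 4 without replicate 3 of ko 72 h. Nr4a2 stood at 17.6, 19.2, 18.7 and 22.7 CPM at 48 h and at 19.9, 18.3, 15.2 and 15.3 CPM at 72 h in the ko, whereas it went from 16.1 ± 1.12 to 36.0 ± 3.08 CPM in wild type (SD, n = 4; difference -1.35, SE 0.14, adjusted p = 3.58e-06). Egr3 fell from 21 ± 2.27 to 11.8 ± 2.88 CPM in the ko and rose from 22.5 ± 1.32 to 34.2 ± 6.80 CPM in wild type (SD, n = 4; difference -1.43, SE 0.20, adjusted p = 0.000334). Penk, the enkephalin precursor, fell by 0.99 in the ko and was 0.28 higher at 72 h in wild type (difference -1.27, SE 0.17). The hexose transporter Slc2a6 (-1.62), Ccdc184 (-1.32), Kit (-1.25), Rxra (-1.21) and Gzme (-1.17) followed, the last a granzyme with close copies. The Kit difference did not pass under limma-voom (adjusted p = 0.0518).

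**Figure D5:**
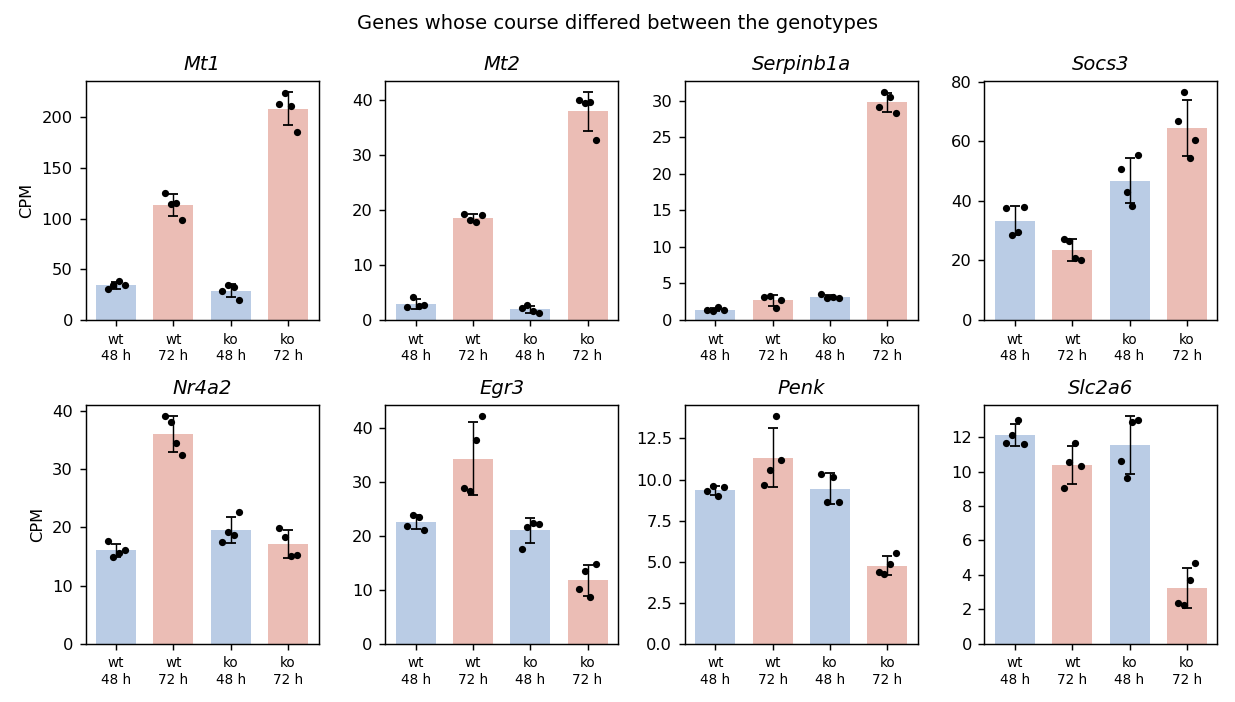
CPM of 8 genes whose course differed between the genotypes, in each library (points), with the group mean (bar, from 0) and SD (error bar, n = 4), at 48 h in blue and 72 h in red. Mt1, Mt2, Serpinb1a and Socs3 were higher in the ko course; Nr4a2, Egr3, Penk and Slc2a6 were lower.

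Among the lists, replication genes held the largest number of negative differences: 14 of 34 were lower in the ko course and 0 higher, against 3.53% of all genes, and the median fold change was -0.62 in the ko and -0.35 in wild type. This count ran from 7 (without replicate 1 of wild type 48 h) to 21 (library-size scaling) over 26 alternatives. The ATF4 and CHOP list followed with 10 of 28 lower (5 to 15), then cholesterol and fatty acid synthesis with 9 of 30 (1 without replicate 3 of ko 72 h, 17 with library-size scaling), early receptor-induced genes with 8 of 28 (4 to 11) and serine, one-carbon and polyamine synthesis with 8 of 21 (3 to 11). Ribosome biogenesis (7 of 35, from 1 to 11), G2 and mitosis (7 of 28, from 1 to 15), amino acid transporters (6 of 15, from 1 to 7) and cytokines (5 of 25, from 4 to 10) came next. Ribosomal proteins had 5 of 79 higher (0 to 19). No difference in these lists other than 2 early genes and 3 cytokines passed a test against a 1.5-fold change.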

How the data were processed

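RNA of mouse CD8 T cells was sequenced from TruSeq Stranded mRNA libraries made from 100 ng of total RNA. The authors deposited raw read counts per gene for 16 libraries, made with bcl2fastq 2.2.0, STAR 2.7 and featureCounts on GRCm38, per the submitters' processing notes. The labels name no annotation release, strand setting or rule for multi-mapped reads, so values of antisense and near-identical genes are uncertain. Of 55335 gene identifiers 55154 were found in GENCODE M21, which gave positions and exon lengths.

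Genes were kept by filterByExpr with a minimum count of 10, which left 15197. Counts were fitted over all 16 libraries in 4 groups with edgeR 4.0.16 (R 4.3.3, TMM scaling, robust quasi-likelihood test), adjusted by Benjamini-Hochberg at 0.05, and the standard error is the log2 fold change over the root of F. The scripts were tested on simulated data. The median biological coefficient of variation was 9.68%. The Spearman correlation of fold change with exon length across 9286 genes was 0.00454. Limma 3.58.1 and DESeq2 1.42.0 were alternatives. Marker sums and shares were tested by exact permutation in scipy 1.17.1.

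The members and the 44 gene lists were chosen with earlier results of these data known. Named by rule were the 12 largest rises and falls (average log2 CPM of at least 3, no overlap), 8 genes each way whose courses differed, up to 3 members of each list, and 16 fixed genes. Other genes printed were chosen after their values were seen. Some genes that the rule takes are not reported here. Alternatives were other scalings, tests, filters, exon length offsets, a replicate block and leaving out libraries.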

Additional observations from a re-analysis of the deposited data

Results flagged for a closer look

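Among 306 groups of 4 ko libraries, 23 (7.52%) held 1 library whose gap to its nearest neighbour exceeded Dixon's critical share of the group's range, where chance gives about 1 in 20. Replicate 3 at 72 h was that library most often. It was the highest for Hspa1b (305 CPM), Cenpa (414 CPM), Batf3 (0.389 CPM) and the ribosomal protein share (18.3%), and the lowest for Mki67 (474 CPM), Klrb1c (6.16 CPM), Ddx58 (16.1 CPM) and mt-Nd3 (78.4 CPM). Replicate 4 at 72 h was the highest for Bcl2l1 (79.7 CPM), Plk1 (45.1 CPM) and mt-Cytb (1337 CPM) and the lowest for Mt2 (32.7 CPM) and Plaur (3.92 CPM), and replicate 2 was the lowest for Ndrg1 (265 CPM).

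At 48 h, replicate 4 was the highest for Pik3ip1 (8.46 CPM), Fosl2 (72 CPM) and Slc1a4 (38.9 CPM) and the lowest for Gzme (5.81 CPM). Replicate 1 was the highest for Cd7 (0.696 CPM) and Lgals3 (58.3 CPM) and the lowest for Egr3 (17.6 CPM). Replicate 2 was the highest for Gzmk (1.38 CPM) and replicate 3 for Srm (295 CPM).

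The course of 43 named genes differed between the genotypes by the interaction test (edgeR, adjusted p under 0.05). The log2 difference, ko course minus wild-type course, was positive for Serpinb1a (2.32), Mt2 (1.62), Fam241a (1.31), Mt1 (1.11), Sdcbp2 (1.08), Socs3 (0.96), Nt5e (0.89), Gpr55 (0.86), Cxcr6 (0.85), Tnfrsf26 (0.85), Jun (0.58), Pik3ip1 (0.47), Smox (0.42) and Cenpa (0.32). It was negative for Slc2a6 (-1.62), Egr3 (-1.43), Nr4a2 (-1.35), Ccdc184 (-1.32), Penk (-1.27), Kit (-1.25), Rxra (-1.21), Gzme (-1.17), Chac1 (-1.08) and Lad1 (-1.03). Smaller negative differences were those of Slc7a11 (-0.93), Slc1a4 (-0.89), Bmf (-0.85), Stc2 (-0.83), Ifrd2 (-0.74), mt-Nd3 (-0.72), Gusb (-0.68), Orc1 (-0.64), Rrm2 (-0.58), Sesn2 (-0.57), Gart (-0.53), Nefh (-0.51), Il7r (-0.48), Tigar (-0.46), Plk1 (-0.44), Sdf2l1 (-0.43), Hyou1 (-0.40), Slc7a5 (-0.37) and Cdc20 (-0.32). The calls of Bmf, Cdc20, Cenpa, Hyou1, Il7r, Kit, Nefh, Nt5e, Pik3ip1, Plk1, Sdf2l1, Sesn2, Slc7a11, Slc7a5, Smox, Tigar and Tnfrsf26 were each lost under at least 1 alternative other than the test against a 1.5-fold change.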

How the results depend on the processing

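In the ko course no called gene was called in the opposite direction under any alternative run. Every alternative except the test against a 1.5-fold change kept 92.3% to 99.8% of the 10334 calls. That test gave 2293 higher and 2022 lower genes. Leaving out 1 library gave 4954 to 5319 higher and 4891 to 5219 lower genes. The genotype difference moved more: 183 higher and 1231 lower genes with library-size scaling, 566 higher with DESeq2, 482 higher with exon length offsets, and 5 higher and 10 lower in the test against a 1.5-fold change. Leaving out 1 library gave 158 to 407 higher and 233 to 649 lower genes. The B cell marker sum rose by 25.7 CPM with library-size scaling against 41.1 CPM with TMM, and that difference no longer passed. The cause of these shifts was not tested. Nr4a2 was called lower in the ko course with library-size scaling (adjusted p = 0.0381), with no filter on low counts (0.0394) and without ko 72 h replicate 1 (0.0252), and Batf3 without ko 72 h replicate 3 (log2 fold change -5.20, adjusted p = 0.000253).

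Replicate numbers are shared by the groups. The deviations of same-numbered ko libraries correlated at 0.048, -0.251, -0.055 and 0.174, and those of same-numbered wild-type libraries at 0.266, 0.019, 0.272 and 0.015. Whether libraries of the same number share a culture or a mouse cannot be told from these values. With the number as a replicate block the ko course had 5183 higher and 5072 lower genes and the genotype difference 280 and 429.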
